A study of Mus musculus with 8 samples.

Results

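The genes described here make antibody or mark the cells that secrete it. They are Jchain, Mzb1, Igkc, Ighm, Igha, Ighg3, Tnfrsf17, Sdc1, Prdm1 and Pou2af1, chosen by name, and all 10 were measured among the 18820 genes compared. Each gene was read from its brightest probe set among those annotated to that gene alone. Expression was measured on 8 arrays of white adipose tissue, each from a different male mouse kept for 5 weeks on the high fat diet D12492 of Research Diets. The adipocyte Sel1l-/- group held 4 mice from a cross of Sel1l flox/flox mice with mice whose Cre recombinase is driven by the promoter of adiponectin, an adipocyte hormone. The other group held 4 wildtype (WT) mice, and the labels do not say whether they carried floxed alleles or Cre. All mice were C57BL/6 of mixed C57BL/6N and C57BL/6J background, and the sources used here give neither age nor fat depot. The deletion was directed at adipocytes, so B cells and plasma cells of the knockout mice were not its target. Values are log2 intensities after the authors' RMA normalization, and the 4 arrays per group limit the precision.

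Plasma cells are the end stage of the B cell lineage and devote most of their protein synthesis to secreted antibody. An antibody joins heavy chains, whose constant part sets the class, to kappa or lambda light chains, and the assembly takes place in the endoplasmic reticulum (ER). Adipose tissue of obese mice is known to hold B cells and antibody, while plasma cells are a minor cell type in it. In whole tissue, fewer cells of a type and less RNA per cell cannot be told apart.

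The array medians of the 8 mice lay between 6.05 and 6.14. Sel1l itself had log2 levels of 9.55, 9.78, 9.72 and 10.07 in Sel1l-/- arrays, against 10.48, 10.57, 10.58 and 10.65 in WT arrays, and was 1.73-fold lower (limma adjusted p = 0.0109). That call was lost with the letter (0.151) or the number (0.0813) of the mouse codes as a block, while the groups did not overlap. Adipocyte markers were bright on every array, with a mean over 10 genes of 11.83 to 12.32 in Sel1l-/- and 12.28 to 12.52 in WT arrays.

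The antibody genes separated individual mice and not the genotypes. 1 mouse of each group, Sel1l-/- 4 and WT 2, had much higher values than its group mates, and these 2 arrays were the highest for Jchain, Igkc, Ighm and Ighg3. Promoter sequences were at hand for 5 of the 10 genes, and those of 3 are shown because they belong to Jchain, a secreted gene with a large spread between mice, and to Prdm1 and Pou2af1, regulators in the B cell lineage. They are RefSeq sequences of build GRCm38.p6 that run from 250 bases before to 50 bases after the start of transcription. Capitals mark matches to TGCAAAT, a core of the octamer motif bound by the partners of the Pou2af1 protein, or to TGACGTGG, a motif known to be bound by the ER stress factor XBP1. Both strands were searched, and the reverse complements are ATTTGCA and CCACGTCA.
Jchain, chr5:88527848-88528147, minus strand: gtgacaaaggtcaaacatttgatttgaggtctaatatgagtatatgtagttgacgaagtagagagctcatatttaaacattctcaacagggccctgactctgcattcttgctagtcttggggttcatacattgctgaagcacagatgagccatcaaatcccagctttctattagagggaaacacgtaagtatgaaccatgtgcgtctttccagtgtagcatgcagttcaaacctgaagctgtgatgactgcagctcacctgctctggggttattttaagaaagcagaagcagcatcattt
Pou2af1, chr9:51213440-51213739, plus strand: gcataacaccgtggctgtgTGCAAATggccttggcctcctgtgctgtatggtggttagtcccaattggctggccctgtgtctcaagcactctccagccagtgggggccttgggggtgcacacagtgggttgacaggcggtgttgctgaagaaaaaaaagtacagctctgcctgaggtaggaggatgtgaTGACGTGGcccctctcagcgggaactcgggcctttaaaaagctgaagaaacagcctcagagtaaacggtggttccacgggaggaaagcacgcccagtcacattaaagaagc
Prdm1, chr10:44458699-44458998, minus strand: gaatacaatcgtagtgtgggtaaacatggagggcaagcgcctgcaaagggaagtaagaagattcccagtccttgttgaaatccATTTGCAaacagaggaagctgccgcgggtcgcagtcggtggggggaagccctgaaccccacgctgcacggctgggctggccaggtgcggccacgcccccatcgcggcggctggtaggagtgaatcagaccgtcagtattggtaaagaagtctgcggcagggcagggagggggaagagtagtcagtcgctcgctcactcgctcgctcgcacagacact
The Pou2af1 window holds both motifs, the Prdm1 window holds the octamer core and the Jchain window holds neither. The other windows of the 5 at hand, those of Sdc1 and Tnfrsf17, hold neither motif and are not shown. Of 32851 promoter windows of the same length, 4.02% hold the octamer core and 0.676% hold TGACGTGG. A match describes the letters and says nothing of binding.

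Jchain encodes the small chain that links IgM and IgA molecules into polymers and is made by antibody-secreting cells. Its log2 levels were 5.21, 5.22, 4.68 and 7.70 in Sel1l-/- arrays 1 to 4, against 6.06, 9.13, 5.03 and 5.14 in WT arrays 1 to 4. The groups overlapped: Sel1l-/- 4 exceeded 3 of the WT arrays and WT 2 exceeded all others. Sel1l-/- 4 was 5.62-fold above the median of the other 3 Sel1l-/- arrays, and WT 2 was 15.9-fold above that of the other 3 WT arrays.

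The genotype comparison for Jchain had a wide interval. The means were 5.70 ± 1.35 in Sel1l-/- and 6.34 ± 1.92 in WT mice (SD, n = 4 each), a log2 fold change of -0.64 with a standard error of 0.98 and a 95% interval from -2.87 to 1.60 (limma adjusted p = 0.820). Without WT 2 the log2 fold change became 0.29, and without both high arrays it was -0.37 with an interval from -1.07 to 0.33. Both intervals hold differences in either direction, so neither a rise nor a fall of Jchain was established with these mice.

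Igkc encodes the constant part of the kappa light chain, the more common light chain in mice. Its log2 levels were 4.67, 5.61, 4.61 and 8.75 in Sel1l-/- arrays 1 to 4, against 5.64, 8.63, 5.08 and 4.84 in WT arrays 1 to 4. Here the high knockout mouse matched the high WT mouse, 8.75 in Sel1l-/- 4 and 8.63 in WT 2, and the other 6 arrays lay at or below 5.64. The means were 5.91 ± 1.95 in Sel1l-/- and 6.05 ± 1.75 in WT mice (SD, n = 4 each; log2 fold change -0.14, limma adjusted p = 0.973).

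**Figure D1:**
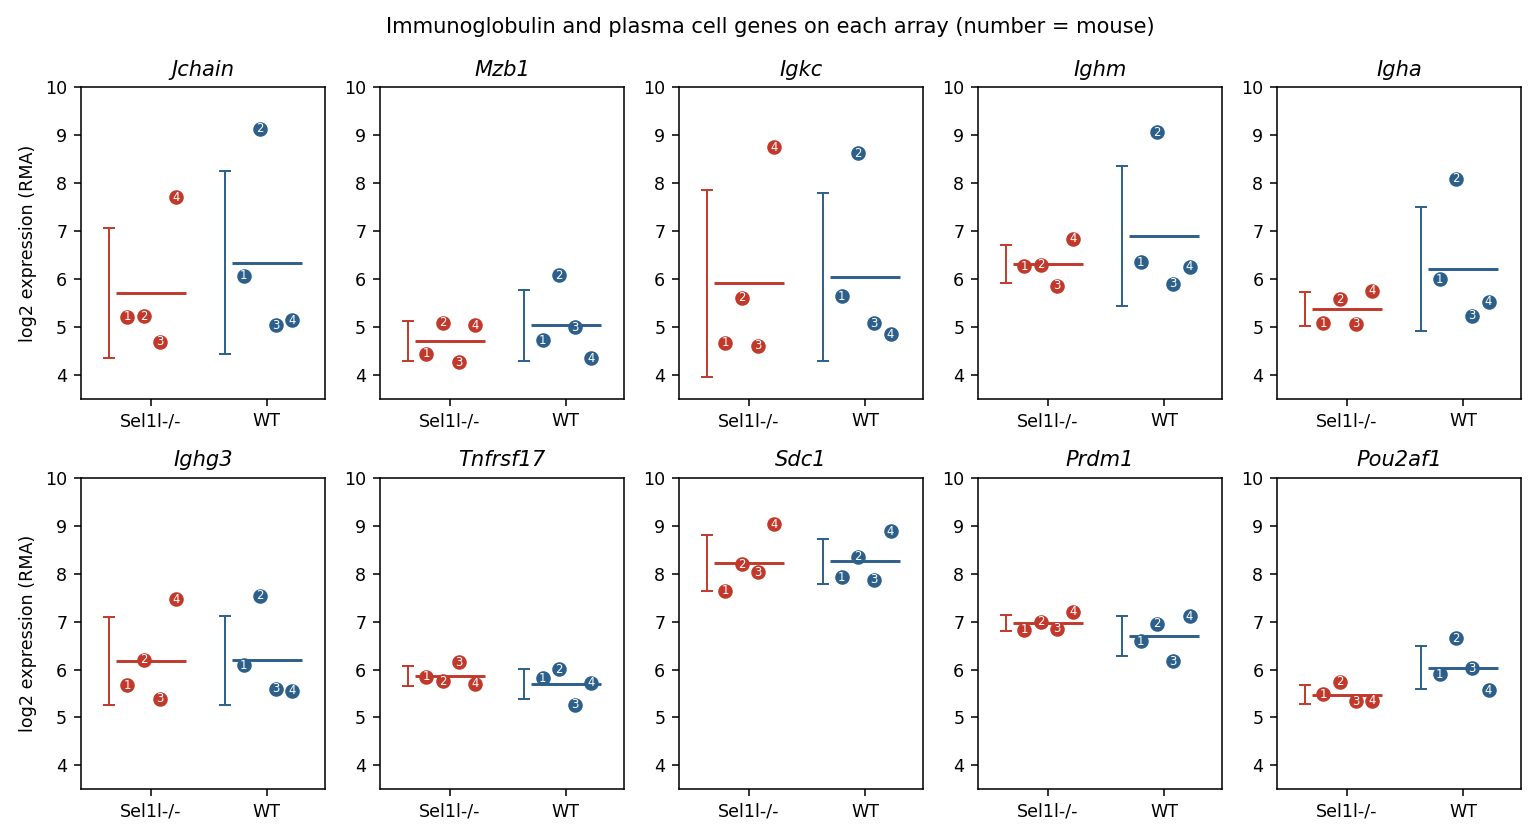
Log2 expression (RMA) of the 10 genes on each array. Red points are Sel1l-/- mice and blue points are WT mice, numbered as in the labels, with the group mean (line) and SD (bar beside it, n = 4). Sel1l-/- 4 and WT 2 stand above the rest for Jchain, Igkc and Ighg3, while WT 2 alone stands out for Ighm and Igha.

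Among the heavy chain genes, Ighm and Igha were raised mainly in WT 2, and Ighg3 in both high mice. Ighm, the constant part of IgM, read 6.26, 6.30, 5.86 and 6.84 in Sel1l-/- arrays, against 6.35, 9.07, 5.90 and 6.26 in WT arrays. Sel1l-/- 4 was 1.49-fold above the median of its group mates, whereas WT 2 was 7-fold above that of the other WT arrays. The log2 fold change was -0.58 (95% interval -2.02 to 0.87, limma adjusted p = 0.738), and it was 0.15 without WT 2. A second Ighm probe set read 5.33, 5.79, 5.31 and 6.42 in Sel1l-/- arrays, against 6.03, 7.81, 5.47 and 5.40 in WT arrays, with the same 2 mice on top.

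Igha, the constant part of IgA, was raised in WT 2 on its brightest probe set. It read 5.08, 5.58, 5.06 and 5.75 in Sel1l-/- arrays, against 5.99, 8.09, 5.23 and 5.52 in WT arrays. Sel1l-/- 4 lay below WT 1 here, and the log2 fold change of -0.84 had a 95% interval from -2.12 to 0.44 (limma adjusted p = 0.548). Without WT 2 the log2 fold change was -0.21.

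The 3 probe sets annotated to Igha alone disagreed. The dimmest of them read 3.74, 3.80, 3.70 and 8.44 in Sel1l-/- arrays, against 3.85, 5.08, 4.13 and 4.07 in WT arrays, so there Sel1l-/- 4 was 26.1-fold above the median of its group mates and WT 2 only 2.01-fold above that of its own. The other probe set not used for the gene followed the brightest, with 5.84 in Sel1l-/- 4 and 7.99 in WT 2. The sources used here do not say whether the probes lie in the constant part or in a variable segment, and immunoglobulin genes share near-identical stretches. All values of single chains and segments are therefore uncertain as to which gene gave the signal.

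Ighg3, the constant part of the IgG3 class, was high in both mice. It read 5.68, 6.21, 5.39 and 7.47 in Sel1l-/- arrays, against 6.09, 7.54, 5.60 and 5.56 in WT arrays. Sel1l-/- 4 and WT 2 were nearly level, and the group means were 6.19 ± 0.92 in Sel1l-/- and 6.20 ± 0.93 in WT mice (SD, n = 4 each; log2 fold change -0.01, limma adjusted p = 0.997). A second, dimmer Ighg3 probe set was flat, between 2.87 and 3.18 in Sel1l-/- and between 2.92 and 3.10 in WT arrays.

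The array carried 38 probe sets for immunoglobulin chains, 22 annotated to a single gene and 16 to several. They were 16 for heavy chains, 20 for kappa and 2 for lambda. Sel1l-/- 4 was the highest of the 8 arrays on 6 of them and WT 2 on 31, and these 2 arrays were the 2 highest on 24. Sel1l-/- 4 exceeded the median of its group mates at least 2-fold on 19 probe sets, and WT 2 exceeded that of the other WT arrays by as much on 32. For kappa chains the median excess was 1.27 log2 units in Sel1l-/- 4 and 3.19 in WT 2, and for heavy chains it was 0.758 in Sel1l-/- 4 and 1.99 in WT 2. The 2 mice were picked out for these levels, so the counts describe them and carry no test.

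The 2 mice differed in which probe sets annotated to kappa variable segments were high. Igkv1-135 was high in both, at 9.77 in Sel1l-/- 4 and 10.83 in WT 2, with the other arrays at 4.87 to 5.40 in Sel1l-/- and 5.34 to 5.70 in WT mice. The probe set for Igkv10-96 and Igkj1 read 5.96 in Sel1l-/- 4, close to its group mates at 5.63 to 6.00, and 10.75 in WT 2. Igkv9-120 likewise read 5.07 in Sel1l-/- 4 and 8.48 in WT 2. The probe set for Igkv6-14 and Igkv6-15 went the other way, with 8.26 in Sel1l-/- 4 and 7.46 in WT 2. These examples were chosen after their values were seen.

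Another mouse, WT 1, stood out on the probe set annotated to the segment Igkv4-91. Igkv4-91 read 4.81, 6.88, 5.49 and 5.24 in Sel1l-/- arrays, against 9.33, 10.23, 5.79 and 4.61 in WT arrays. WT 1 was thus close to WT 2 on this segment, although its Igkc level of 5.64 was far below the 8.63 of WT 2. Both lambda probe sets were highest in WT 2, with 7.41 and 6.36 in Sel1l-/- 4 and 9.82 and 9.34 in WT 2.

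**Figure D2:**
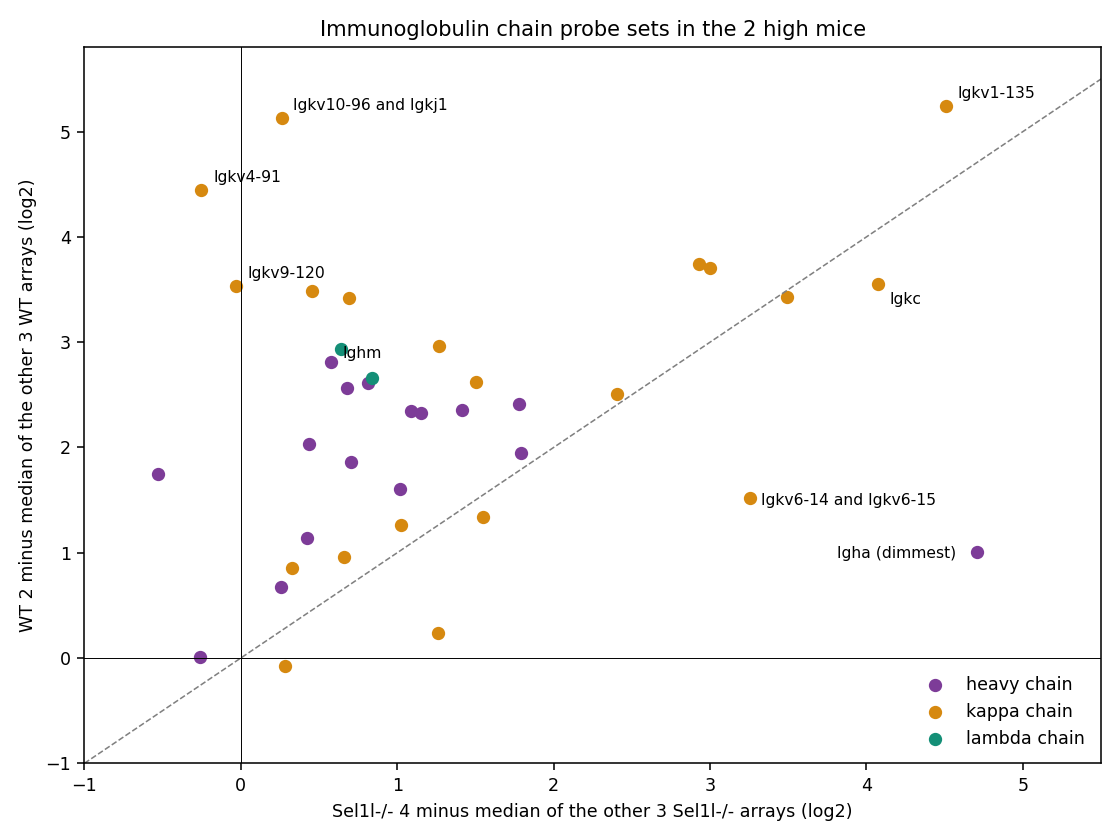
Each point is 1 of the 38 immunoglobulin probe sets, placed by how far Sel1l-/- 4 (x axis, log2) and WT 2 (y axis, log2) lay above the median of the other 3 arrays of their own group. Points near the dashed line of equality were raised alike in both mice; Igkv10-96, Igkv9-120 and Igkv4-91 were raised in WT 2 and not in Sel1l-/- 4, and the dimmest Igha probe set mainly in Sel1l-/- 4.

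Between the genotypes, 34 of the 38 probe sets had a negative log2 fold change, with a median of -0.43 and a range from -1.88 to 0.64. None passed an adjusted p of 0.05 in limma over all 35556 probe sets, and none had an unadjusted p under 0.05 (smallest adjusted p = 0.556). Of all probe sets, 0.799% passed. The 38 share the same 8 mice, so their signs are not independent.

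Mzb1 encodes an ER protein that assists the chaperones BiP and Grp94 in antibody assembly. It read 4.44, 5.09, 4.26 and 5.04 in Sel1l-/- arrays, against 4.72, 6.07, 4.99 and 4.34 in WT arrays. WT 2 was again the highest, 2.55-fold above the median of the other WT arrays, while Sel1l-/- 4 did not exceed Sel1l-/- 2. Its lowest values lie near the arrays' lower quartiles of 4.33 to 4.37, where RMA compresses differences. The log2 fold change was -0.32 (95% interval -1.14 to 0.49, limma adjusted p = 0.739), and 0.02 without WT 2.

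Tnfrsf17 encodes BCMA, a receptor on plasma cells for the survival factors BAFF and APRIL. It read 5.85, 5.76, 6.15 and 5.71 in Sel1l-/- arrays, against 5.82, 6.01, 5.27 and 5.73 in WT arrays. It did not follow the antibody genes: Sel1l-/- 4 was the lowest array of its group, and the log2 fold change was 0.16 (95% interval -0.21 to 0.53, limma adjusted p = 0.714).

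Prdm1 encodes Blimp-1, the repressor that drives plasma cell differentiation and is also made by T cells and macrophages. It read 6.83, 6.998, 6.85 and 7.20 in Sel1l-/- arrays, against 6.59, 6.95, 6.17 and 7.12 in WT arrays. Its highest arrays were Sel1l-/- 4 and WT 4, and its log2 fold change was 0.26 (95% interval -0.18 to 0.70, limma adjusted p = 0.599). With the replicate number as a block the interval narrowed to -0.01 to 0.54 (adjusted p = 0.258).

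Sdc1 encodes syndecan-1 (CD138), a cell surface proteoglycan used to identify plasma cells and also made by epithelial and other cells. It read 7.65, 8.20, 8.03 and 9.03 in Sel1l-/- arrays, against 7.92, 8.35, 7.87 and 8.89 in WT arrays. WT 4, a mouse with low Jchain (5.14) and Igkc (4.84), had nearly as much Sdc1 as Sel1l-/- 4, and WT 2 did not stand out. The log2 fold change was -0.03 (95% interval -0.76 to 0.69, limma adjusted p = 0.977).

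The mice with the highest Sdc1 were those with the highest mean over macrophage and dendritic cell markers. The mean of 18 such markers was 9.80 in Sel1l-/- 4 and 9.19 to 9.56 in its group mates, and 9.68 in WT 4 against 8.78 to 9.40 in the other WT arrays. The same order was seen for Trem2, a receptor of lipid-associated macrophages, which read 10.81 in Sel1l-/- 4 and 10.47 in WT 4. Single markers were mixed. Of the 18, Sel1l-/- 4 was the highest of all 8 arrays on 11. It was the lowest of its group on the dendritic cell markers Clec9a (6.40), Xcr1 (6.71), Flt3 (5.73), Siglech (5.84) and Zbtb46 (6.83), and on Cd163 (8.36). The part of macrophages in the Sdc1 level was not tested. Of the other syndecans, Sdc2 differed by -0.39 on the log2 scale (limma adjusted p = 0.106, and 0.0423 under the replicate block) and Sdc4 by 0.16 (adjusted p = 0.298).

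Pou2af1 encodes BOB.1 (OCA-B), a coactivator that octamer-binding factors use on immunoglobulin promoters, and it is expressed throughout the B cell lineage. It read 5.49, 5.74, 5.33 and 5.34 in Sel1l-/- arrays, against 5.90, 6.65, 6.02 and 5.57 in WT arrays. The groups overlapped only through Sel1l-/- 2 and WT 4. Sel1l-/- 4, with its high kappa and J chain values, had no raised Pou2af1, while WT 2 had the highest.

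Among the 10 genes Pou2af1 had the smallest p. The means were 5.48 ± 0.19 in Sel1l-/- and 6.04 ± 0.45 in WT mice (SD, n = 4 each), a log2 fold change of -0.56 (standard error 0.21, 95% interval -1.04 to -0.08, unadjusted p = 0.0268, limma adjusted p = 0.261). It did not pass the threshold. With the replicate number as a block the adjusted p was 0.0592, and without WT 2 the log2 fold change was -0.36 (adjusted p = 0.344).

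None of the 10 genes passed an adjusted p of 0.05 in limma, where 1.72% of all genes did, and 1 had an unadjusted p under 0.05, where 15% of all genes did. On none did the 4 Sel1l-/- arrays lie apart from the 4 WT arrays, where 10.3% of all genes did. Of the 10, 8 had a negative log2 fold change, against 51.2% of all genes. Their median was -0.23, against -0.004 over all genes, and it was 0.20 without WT 2 and -0.16 without both high arrays. Over all genes 195 were higher and 129 lower, and 119 were higher and 154 lower once the arrays were centred on their medians. With the replicate block, 358 were higher and 367 lower, and none of the 10 was among them. The mouse codes in the labels carry a letter and a number whose meaning is not stated. Letter F, the single letter found in both genotypes, held Sel1l-/- 1 and 2 and WT 4, and there Jchain differed by 0.08, Igkc by 0.30 and Igha by -0.20. Within number 7, which both high mice carry along with Sel1l-/- 1, Jchain differed by -2.67 and Igkc by -1.92.

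**Figure D3:**
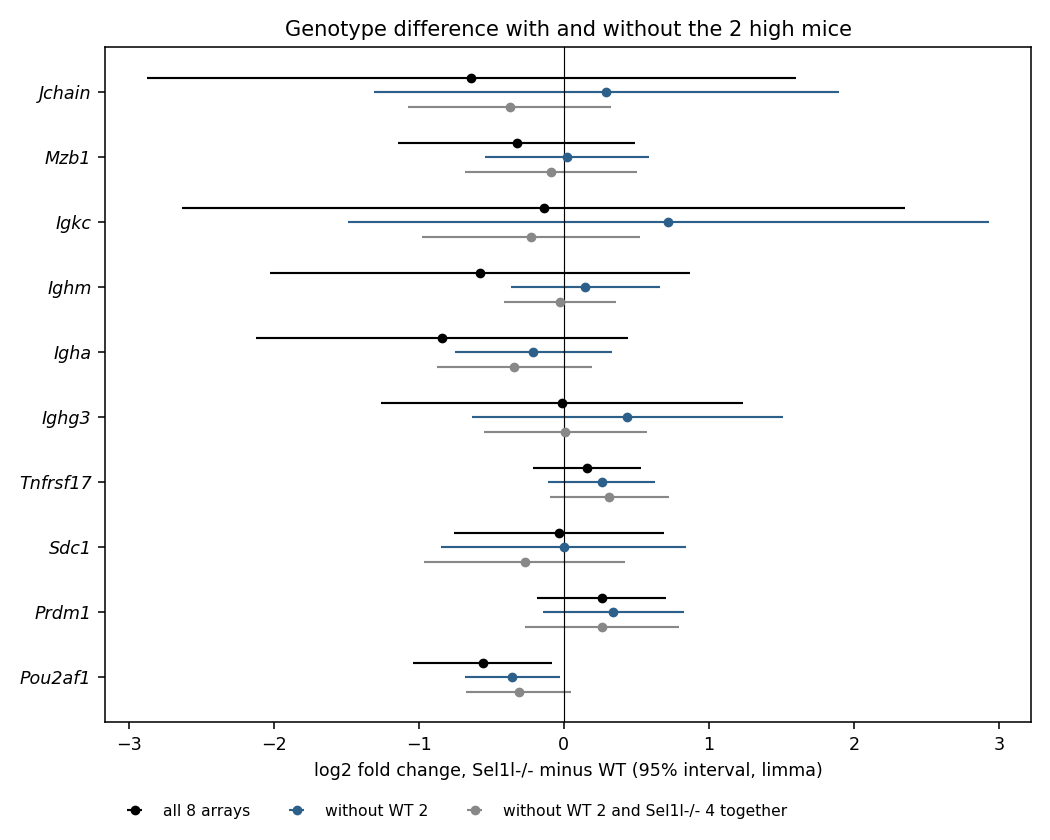
Log2 fold change of Sel1l-/- minus WT with its 95% interval from limma for the 10 genes, over all 8 arrays (black), without WT 2 (blue) and without both high arrays (grey). The intervals of Jchain and Igkc shrink once both arrays are left out, and Jchain changes sign when WT 2 alone is left out.

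The spread between mice of the same genotype was large for the antibody genes. The SD within groups was 1.85 for Igkc, 1.66 for Jchain, 1.07 for Ighm, 0.95 for Igha and 0.92 for Ighg3 in log2 units, against a median of 0.13 over all genes. Igkc and Jchain lay at percentiles 99.97 and 99.96 of all genes. Of the 10 genes, 7 lay above percentile 95, and Tnfrsf17 ranked lowest at 86.3. Such spreads were not limited to antibody genes: Cd209a (1.39), Cxcl13 (1.26), Itgax (1.15), Gpnmb (1.09) and Il7r (1.08), immune genes picked after their values were seen, exceeded Ighm.

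**Figure D4:**
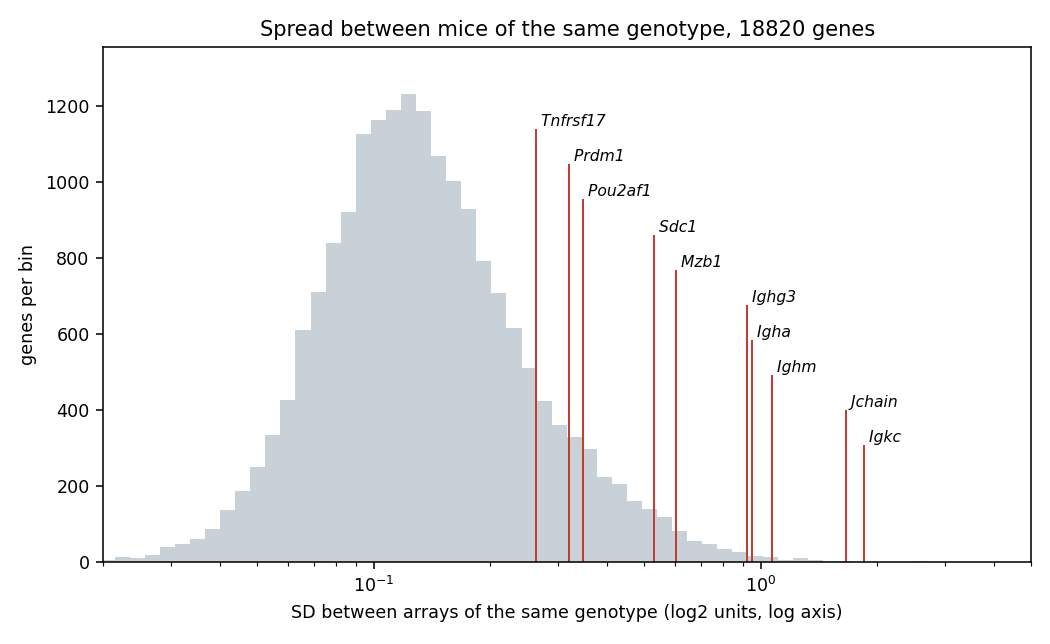
Histogram of the SD between arrays of the same genotype (log2 units on a log axis) for all 18820 genes, with the 10 genes marked by red lines whose heights carry no value. Igkc (1.85) and Jchain (1.66) lie in the far right tail, and Tnfrsf17 (0.26) lies closest to the bulk.

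Outside the 10 genes, the 6 whose pattern over the 8 arrays was most like the mean of Jchain, Igkc, Ighm, Igha and Ighg3 were Igkv8-30, Igkv6-23, Ighv1-72, Morn3, Clns1a and Igkv6-20. Their Pearson correlations were 0.972 to 0.983 and rest on the same 2 arrays, so they carry no p. The 4 immunoglobulin segments among them ranged over 1.28 to 3.44 log2 units, while Morn3 and Clns1a each ranged over about 0.22 and 0.21.

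Markers of B cells, the precursors of plasma cells, did not share the order of the antibody genes. Of 18 measured markers, Sel1l-/- 4 was the lowest of all 8 arrays on 9 and the highest on 3, and WT 2 was the highest on 9. The mean over the 18 was 6.33 in Sel1l-/- 4, within the 6.22 to 6.51 of its group mates. In WT 2 it was 6.71, above the 6.35 to 6.42 of the other WT arrays. The bright genes Blnk and Cd72 raised the mean of Sel1l-/- 4. Blnk read 10.37 there and 8.66 to 9.28 in its group mates, and Cd72 read 10.78 and 9.05 to 9.42. Ms4a1 (CD20), a surface protein of B cells that plasma cells lack, read 5.88, 6.70, 5.56 and 5.40 in Sel1l-/- arrays, against 6.67, 6.81, 6.66 and 5.87 in WT arrays. Cd79a, part of the B cell receptor, read 6.11 in Sel1l-/- 4 and 7.85 in WT 2. The mouse with the second highest Jchain, Sel1l-/- 4, had the lowest Ms4a1, Cd79a and Pax5, the B cell identity factor, while WT 2 was the highest for each of these. The 3 markers highest in Sel1l-/- 4 were Cd22, Blnk and Cd72. Its Cd79b level of 7.64 lay within the 7.18 to 8.19 of its group mates. These markers were named after their values were seen, and the part of B cells in the antibody levels was not tested.

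Between genotypes, 14 of the 18 B cell markers had a negative log2 fold change and the median was -0.21, but none passed the threshold. Cxcr5, the receptor that guides B cells into follicles, came closest, at 3.83, 3.97, 3.72 and 3.71 in Sel1l-/- arrays, against 4.28, 4.51, 4.31 and 4.08 in WT arrays. The groups did not overlap, and the log2 fold change was -0.49 (limma adjusted p = 0.0566, but 0.0221 with the replicate block). Its Sel1l-/- values are below the arrays' lower quartiles. Spib, an ETS factor of B cells and plasmacytoid dendritic cells, differed by -0.56 on the log2 scale (adjusted p = 0.124, and 0.0429 under the block).

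WT 2 also had the highest Cxcl13, the chemokine that draws B cells through Cxcr5. Cxcl13 read 7.32, 8.91, 8.23 and 9.03 in Sel1l-/- arrays, against 9.09, 11.12, 7.55 and 7.93 in WT arrays, with overlapping groups (limma adjusted p = 0.793). Cxcl13 was named after its values were seen. Markers of lymph node stroma and vessels were mixed in level. Cr2, a complement receptor of follicular dendritic cells and B cells, read 3.41 to 3.60 in Sel1l-/- and 3.53 to 3.84 in WT arrays, and Glycam1, a ligand on high endothelial venules, 4.32 to 4.66 in Sel1l-/- and 4.27 to 4.70 in WT arrays. Chst4, a sulfotransferase of the same venules, was brighter, at 7.22 to 8.17 in Sel1l-/- and 6.25 to 8.43 in WT arrays, and so was the chemokine Ccl19, at 7.23 to 7.95 in Sel1l-/- and 7.33 to 9.07 in WT arrays. The part of lymph node tissue in the antibody levels was not tested. Of 12 measured markers of lymph node stroma and vessels, none passed the threshold. Il7, a lymphocyte growth factor, differed by -0.39 on the log2 scale (adjusted p = 0.175, and 0.0424 under the block) and Cr2 by -0.20 (adjusted p = 0.281).

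**Figure D5:**
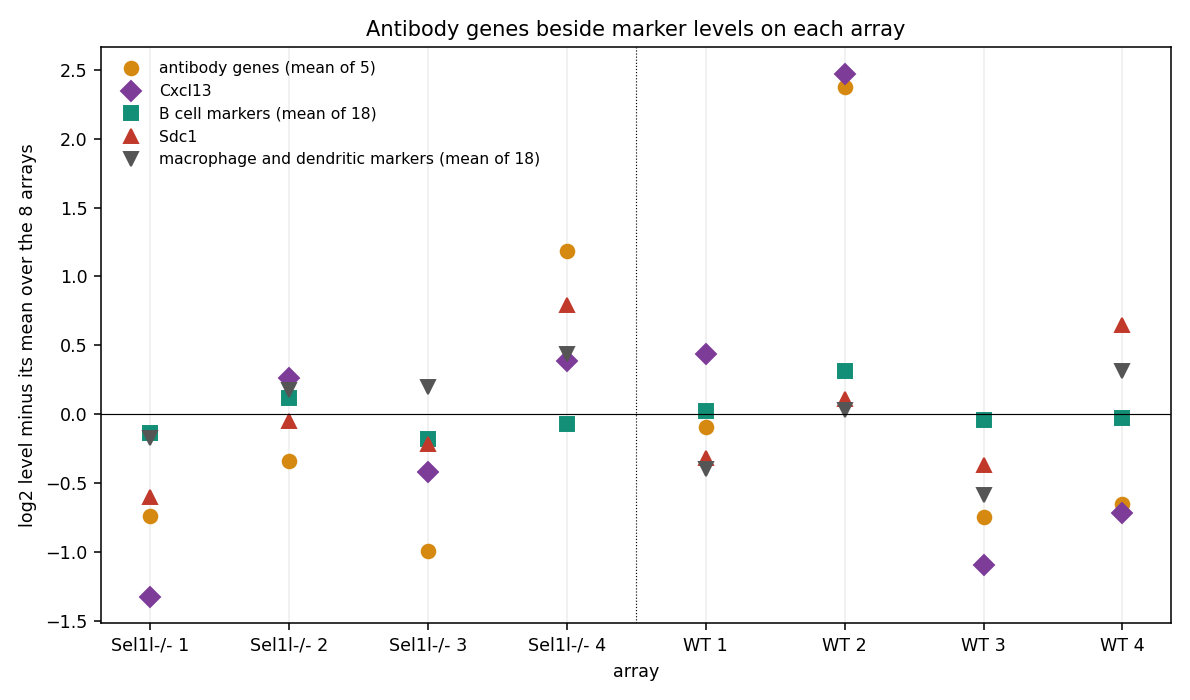
Levels on each array minus their mean over the 8 arrays (log2), for the mean of 5 antibody genes, Cxcl13, the mean of 18 B cell markers, Sdc1 and the mean of 18 macrophage and dendritic cell markers. WT 2 is high for the antibody genes and Cxcl13, Sel1l-/- 4 for the antibody genes, Sdc1 and the macrophage markers, and WT 4 for Sdc1 and the macrophage markers without the antibody genes.

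The mean of 17 T and NK cell markers was 5.62 to 6.02 in Sel1l-/- and 5.52 to 6.14 in WT arrays. Cd2, an adhesion receptor of T, NK and some B cells, was the single marker past the threshold, at 6.60, 7.21, 6.92 and 6.80 in Sel1l-/- arrays, against 7.39, 7.56, 7.48 and 7.70 in WT arrays. It was 1.57-fold lower (limma adjusted p = 0.0456), but the call was lost without any of 7 single arrays (0.0783 to 0.119) and held without Sel1l-/- 2 (0.0428). It was also lost with array weights (0.0572), the letter block (0.325) and the number block (0.158). The log2 fold change of Cd2 was -0.65 without a block, -0.80 with the letter block and -0.62 with the number block.

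Of 18 measured genes that keep plasma cells alive or call them into tissue, none passed the threshold. Il10, a cytokine that also promotes B cell differentiation, read 4.25, 4.47, 4.15 and 4.51 in Sel1l-/- arrays, against 3.89, 4.09, 3.86 and 3.89 in WT arrays. The groups did not overlap, but the values are low on the intensity scale (log2 fold change 0.41, limma adjusted p = 0.0794, and 0.0403 with the replicate block). Cxcl12, the ligand that retains plasma cells through Cxcr4, differed by -0.34 on the log2 scale (adjusted p = 0.303).

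Among 16 further plasma cell genes none passed the threshold. Ell2, an elongation factor that directs the secreted form of heavy chain transcripts and is made in many cells, averaged 10.63 ± 0.11 in Sel1l-/- and 10.30 ± 0.09 in WT mice (SD, n = 4 each), without overlap (log2 fold change 0.33, limma adjusted p = 0.0793, and 0.0486 with the replicate block). Txndc11, an ER thioredoxin-like protein, differed by 0.24 on the log2 scale (adjusted p = 0.208). Xbp1, the transcription factor needed for antibody secretion and for the ER stress response, read 11.70 to 11.95 in Sel1l-/- and 11.49 to 11.83 in WT arrays (adjusted p = 0.528).

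Of 24 measured genes of the secretory pathway that plasma cells and stressed cells share, 10 rose, none fell and the median log2 fold change was 0.46, where 1.04% of all genes rose. The list was chosen with these results known and is no independent evidence of its direction. Derl3, a derlin abundant in plasma cells, read 9.34, 9.60, 9.72 and 10.45 in Sel1l-/- arrays, against 6.07, 6.57, 6.41 and 6.33 in WT arrays (limma adjusted p = 0.000516). The 3 knockout mice with low Jchain had Derl3 far above WT 2, the mouse with the highest Jchain. The part of plasma cells in the Derl3 level was not tested. Within the knockouts, Sel1l-/- 4 was also the highest for Derl3, and it was the highest of all 8 arrays on 17 of the 24 genes. Pdia6, a disulfide isomerase, rose 2.11-fold, Hsp90b1, the chaperone Grp94 that Mzb1 assists, 1.79-fold and Hyou1, an ER exchange factor, 1.82-fold, with adjusted p of 0.000516, 0.00193 and 0.00618. With the code letter as a block the calls of Pdia6, Hsp90b1 and Hyou1 were lost (adjusted p = 0.0709, 0.133 and 0.211) and that of Derl3 held (0.039). With the code number that of Hyou1 was lost (0.0571). Without a block the log2 fold changes of Pdia6, Hsp90b1 and Hyou1 were 1.08, 0.84 and 0.87. With the letter block they were 1.01, 0.75 and 0.69. Of the 22 genes of this list with a promoter sequence, none holds TGACGTGG in the window shown above for Pou2af1, where 0.676% of all windows do. At that share so short a list cannot show a lack of the motif.

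Of 5 genes that act with octamer factors, Ets1, a transcription factor of lymphocytes and endothelial cells, fell to 8.25 to 8.34 in Sel1l-/- arrays, against 8.53 to 8.72 in WT arrays (log2 fold change -0.32, limma adjusted p = 0.0461). That call was lost with the replicate block (adjusted p = 0.0518), the letter block (0.372), the number block (0.177) and without any of 8 single arrays (0.0762 to 0.127). The log2 fold change of Ets1 was -0.375 with the letter block and -0.307 with the number block. None of 8 genes known to be repressed by Blimp-1 passed the threshold, and Id3, a helix-loop-helix inhibitor, differed by -0.25 on the log2 scale (adjusted p = 0.299).

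The receptors that bind or carry antibody likewise showed no call among 11 genes. Trim21, a cytosolic Fc receptor, differed by -0.24 on the log2 scale (limma adjusted p = 0.254) and Lgals3, a lectin that binds IgE, by 0.39 (adjusted p = 0.392). Pigr, which carries polymeric IgA and IgM across epithelia, was dim throughout, at 4.05 to 4.36 in Sel1l-/- and 4.11 to 4.45 in WT arrays. Other cells the tissue could hold showed no call either. Of 9 mesothelial markers all had negative log2 fold changes, led by Wt1 (-0.44, adjusted p = 0.108) and Upk1b (-0.60, adjusted p = 0.261). Under the replicate block the adjusted p were 0.0382 for Wt1 and 0.0204 for Upk1b, but under the number block 0.142 and 0.447. With the letter block the log2 fold changes were -0.31 for Wt1 and -0.13 for Upk1b. Of 9 epithelial markers, Elf3 differed by 0.07 on the log2 scale (adjusted p = 0.607) and Krt7 by -0.38 (adjusted p = 0.635).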

How the data were processed

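The authors deposited log2 expression values of 35556 probe sets on 8 single-colour arrays. The submitters' processing notes name RMA, and the sources used here give no version. That the scale is log2 follows from the range of the values, 1.72 to 13.9. RMA equalizes the arrays, so a shift of most transcripts would not show, and dim values are compressed.

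The platform annotation gave 21218 probe sets with 1 gene symbol, 1881 with several and 12457 without an entry. For each of 18820 genes the probe set with the highest mean was kept, and no dim gene was removed. The genotype comparison used lmFit and eBayes of limma 3.58.1 under R 4.3.3 (two-sided, Benjamini-Hochberg over all genes, threshold 0.05 on the adjusted p). Standard errors and intervals come from the same fit. The fit was also run on simulated arrays of independent normal values. These held no outlying mice, so that run does not bear on the antibody genes. Figures were drawn with Python 3.11.15 and matplotlib 3.10.9. The 38 immunoglobulin probe sets were taken from a fit over all probe sets.

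The 10 genes and the lists beside them were chosen with earlier results of these data known. Named genes were the 10, up to 4 genes past the threshold per list (or 2 with the smallest p), and the 6 most like the antibody genes. Other genes, such as Xbp1, Pigr, Glycam1, Ms4a1, Cd79a, Pax5 and Cxcl13, and the single immunoglobulin probe sets were named after their values were seen. Listed genes that no single-gene probe set covers were not analysed here. The labels give each array a mouse of its own.

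Both groups carry replicate numbers 1 to 4 in the titles. After subtracting group means, mice sharing a number had correlations of 0.518, 0.107, 0.363 and 0.524 over all genes, each over 0.1, so the number was tried as a block. Mice with different numbers had -0.489 to 0.328. Among these, Sel1l-/- 1 with WT 3 (0.328) and Sel1l-/- 4 with WT 2 (0.327) exceeded the lowest pair that shares a number. The pairing by replicate number thus comes from the data and is not established, and the labels do not say what a number shares. Letter and number of the mouse codes, centring, dimness filters, array weights, variance model, probe set choice and leaving out arrays were the other alternatives. Leaving out Sel1l-/- 4 and WT 2 together was added after seeing the data.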

Additional observations from a re-analysis of the deposited data

Results flagged for a closer look

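Within each group of 4 arrays, an array was marked where its gap to the nearest array, as a share of the group's range, exceeded Dixon's 95% critical value. Chance marks about 1 in 20 groups, counting either end of a group. Of the 10 genes, Ighm was marked for WT 2 (share 0.86). Jchain and Igkc were not marked. Of the 38 immunoglobulin probe sets, 3 were marked for a high Sel1l-/- array and 8 for a high WT array. The share marked among all probe sets was not computed, and the 38 share the same mice, so these counts carry no test. Among the genes most like the antibody genes, Igkv6-20 was marked for Sel1l-/- 4 (0.862), and Igkv8-30 (0.888) and Clns1a (0.932) for WT 2.

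Sel1l-/- 4 was also marked as low for Il7 (0.899), Krt7 (0.913) and Slc2a4 (0.894), the insulin-responsive glucose transporter. Slc2a4 read 9.74, 9.58, 9.65 and 8.21 in Sel1l-/- arrays, against 10.56, 10.10, 10.46 and 10.16 in WT arrays. WT 2 was marked as high for Il10 (0.848), WT 3 for Sdc2 (0.896) and WT 4 for Hyou1 (0.86).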

How the results depend on the processing

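None of the 10 genes passed the threshold under any of the alternatives, 171 values in all with a smallest adjusted p of 0.0592. Direction was less stable, and 20 of the 171 had the opposite sign. With the code letter as a block, the log2 fold changes became 0.0786 for Jchain, 0.42 for Mzb1, 0.30 for Igkc, 0.0231 for Ighm, 0.39 for Ighg3, -0.20 for Prdm1 and 0.0447 for Pou2af1, and the median 0.061. Sdc1 kept its sign but moved to -0.97. With the same block the log2 fold changes became 0.57 for Krt7, 0.0198 for Id3, 0.000298 for Igkv8-30, 0.21 for Ighv1-72, -0.23 for Lgals3 and -0.74 for Trem2. Leaving out each array in turn gave -1.30 to 0.29 for Jchain, -0.56 to 0.0224 for Mzb1, -1.08 to 0.72 for Igkc, -0.91 to 0.15 for Ighm, -0.44 to 0.44 for Ighg3 and -0.30 to 0.18 for Sdc1. The median of the 10 was -0.55 to 0.20. It gave -0.37 to 0.19 for Igkv8-30, -1.16 to 0.0522 for Igkv6-23, -0.33 to 0.28 for Ighv1-72, -0.0505 to 0.0239 for Morn3, -0.0619 to 0.0154 for Clns1a and -0.32 to 0.11 for Igkv6-20. Without both high arrays Ighg3 was at 0.0114 and Ighv1-72 at 0.0441. Removing WT 2 turned Jchain, Mzb1, Igkc, Ighm, Ighg3 and the median. Within code numbers 5 and 9, Jchain differed by -0.92 and 0.19. Of the 18820 genes, 195 rose and 129 fell. The counts were 347 and 219 with array weights, 7 and 13 with the letter block, 8 and 3 with the number block, 358 and 367 with the replicate block, 70 and 26 without both high arrays, and 66 to 244 and 31 to 140 without a single array. With the arrays centred 119 were higher and 154 lower. Without the dimmer 50% of genes only Sdc1 of the 10 remained, so no median was computed. The replicate block changed the calls of Ets1, Cxcr5, Spib, Il10, Ell2, Il7, Wt1, Upk1b, Adipoq and Sdc2 among named genes. With the number block none of these passed the threshold (limma adjusted p = 0.130 to 0.447). With the letter block the log2 fold changes were -0.18 for Cxcr5, -0.13 for Spib, 0.47 for Il10 and 0.30 for Ell2. They were -0.05 for Il7, -0.31 for Wt1, -0.13 for Upk1b, -0.29 for Adipoq and -0.45 for Sdc2. The causes were not tested. Mzb1 had the dimmest levels of the 10, near the lower quartile, where small differences are hard to detect.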

Other observations

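None of the 10 measured adipocyte markers passed the threshold, and all had negative log2 fold changes. Adiponectin (Adipoq) read 12.22, 12.26, 12.33 and 11.80 in Sel1l-/- arrays, against 12.77, 12.68, 12.89 and 12.53 in WT arrays, without overlap (log2 fold change -0.56, limma adjusted p = 0.0753, and 0.0204 with the replicate block). Sel1l-/- 4 was the lowest array on 8 of them. That mouse, which had the high kappa and J chain values, was also the lowest array on 7 of 9 mesothelial markers. On 18 macrophage and dendritic cell markers it was the highest array on 11 and the lowest on 2, the dendritic cell markers Siglech and Zbtb46. It was also the lowest of its group on the dendritic cell markers Clec9a, Xcr1 and Flt3.

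Cd209a, a lectin of monocyte-derived dendritic cells, separated WT 2 from all other mice in the opposite direction. It read 7.56, 8.14, 9.06 and 8.79 in Sel1l-/- arrays, against 9.63, 5.98, 8.67 and 10.11 in WT arrays. Il23r, the receptor of interleukin 23, followed the antibody genes, at 4.92 in Sel1l-/- 4 and 5.92 in WT 2, with the other arrays at 3.72 to 3.91 in Sel1l-/- and 3.82 to 4.21 in WT mice. Both were picked after their values were seen, and neither passed the threshold between genotypes (limma adjusted p = 0.938 for Cd209a and 0.780 for Il23r).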
